A study of Homo sapiens with 9 samples.

Results

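BJ cells, human fibroblasts immortalised with telomerase, were sequenced after oncogenic RAS had been switched on and lncRNA-OIS1, a long non-coding RNA, had been knocked down. These lncRNA-OIS1 knockdown libraries are compared here with cells in which RAS was not activated. The comparison uses 5 of the 9 polyA RNA-seq libraries of the study, with 4 knockdown libraries and 1 control library. In the knockdown libraries RASG12V was active and each library came from cells with a hairpin of its own against lncRNA-OIS1, shRNA#32-2, #32-3, #32-8 or #32-9, called hairpins 1 to 4 here. A further 2 libraries, called senescent, had RASG12V active and a hairpin without a target (ShRNA 500 or ShRNA 507), and their values stand beside each result. The control had ShRNA 500, and its label names no RAS activation. The labels give 4-OHT, the drug form of tamoxifen used to switch on inducible proteins, for 14 days to all of them, the control included, while the description of the design speaks of untreated cells. Control and knockdown libraries differ both in RAS and in the hairpin's target, so the effects of RAS and of the knockdown cannot be told apart in this comparison.

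Of the 13745 genes in the table, 12481 had a highest value of at least 40 in the 9 libraries and were tested. Values are normalised read counts with a floor of 20, and a log2 difference is the mean over the hairpins minus the control. All 4 hairpin libraries lay on one side of the control for 7582 genes, 60.7% of those tested, 4004 above and 3578 below. A gene is called higher or lower where this held and its limma p, adjusted by Benjamini-Hochberg for the whole table, was under 0.05. By that rule 1399 genes changed, 11.2% of those tested, with 671 higher (5.38%) and 728 lower (5.83%). The fitted change reached 2-fold for 396 of the higher and 554 of the lower genes, and in 312 and 465 of them every hairpin was at least 2-fold away from the control. By fold alone, with no test, all 4 hairpins were at least 2-fold above the control for 419 genes (3.36%) and at least 2-fold below it for 595 (4.77%). Without hairpin 4 the calls came to 2822 (22.6%), 1448 higher (11.6%) and 1374 lower (11%), and 1370 of the 1399 were among them. Without hairpin 2 they came to 800, and without senescent library 1 or 2, which help to set the spread, to 400 or 397. Of the 112 called genes that a rule named, 60 kept their call under all alternatives run, among them MMP1, STC1, TM4SF1, DOCK4, SPRY2, DUSP6, E2F7, CDKN2C, DCN and ACTA2. The other 52 lost it without either senescent library, among them PTGS2, FST, PTTG1, CHEK1, NRAS, ERAP2, CDKN2B, CDKN1B, CCND1, COL1A1, HGF, HAS2, PLAU, SERPINB2, TRPA1 and ALDH1A1. The control is a single library with no replicate of its own. The tests assume that it varies like the knockdown and senescent groups, in which each library carries a different hairpin. An exact permutation test of 4 libraries against 1 cannot give a p below 0.2.

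RAS is a membrane switch that, in its oncogenic form, keeps the RAF, MEK and ERK kinase cascade active. Primary fibroblasts answer this signal with senescence, a lasting arrest enforced by p53, RB and the inhibitors of cyclin-dependent kinases, and with the release of proteases and cytokines. A cell that has lost an element of the arrest can keep dividing with active RAS, which is called senescence bypass and is named in the title of the study. The transcript of lncRNA-OIS1 itself was not analysed here, and its level after knockdown is therefore unchecked.

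The libraries were not equally alike. Across all genes the log2 values of hairpins 1 to 3 correlated at r = 0.981 to 0.982 with each other, hairpin 4 at 0.92 to 0.935 with those 3, and the control at 0.863 to 0.906 with the 4 hairpins. Genes share their libraries, so these r values only describe them. Hairpin 4 was more than 2-fold above each other library for 300 genes and below for 224, the control for 490 and 315, and the other 7 libraries for at most 27 and 24. Fibroblast markers were present throughout: 18 of 19 were in the table, none was at the floor in all 4 hairpins, and they summed to 180708.1 to 209344.3 with the hairpins, 158237.7 to 170910.0 in the senescent libraries and 372546.1 in the control. Of the 18 markers 2 were called higher (11.1%, beside 5.38% of all genes) and 8 lower (44.4%, beside 5.83%), with a median log2 difference of -0.58. In a bulk sample, fewer cells of a type and less RNA per cell cannot be told apart.

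HRAS, one of the RAS genes, had 11855.2, 19543.6, 16650.8 and 15473.7 with hairpins 1 to 4, 12051.4 and 11321.3 in the senescent libraries and 26556.6 in the control. All 4 hairpins were below the control, and HRAS was not called (log2 -0.76, SE 0.27, adjusted p = 0.131). The labels do not say which RAS gene carries the G12V change. NRAS, a second RAS gene, was slightly higher with every hairpin, at 3389.8, 3265.4, 3303.4 and 2896.6, against 1907.7 and 1928.4 in the senescent libraries and 2187.9 in the control (1.47-fold over control, adjusted p = 0.0361).

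Many genes that ERK signalling switches on were called higher than the control. Of 24 genes of RAS-MAPK feedback and its transcription factors 15 rose and none fell, or 62.5% of the list beside 5.38% of all genes called higher. The other 9 were not called, and for 4 of them the hairpins lay on both sides of the control. The 24 genes had a median log2 difference of 1.59, beside 0.05 for all genes tested. Without hairpin 4 the list had 17 higher, none lower and a median of 1.39, where 11.6% of all genes were called higher and 11% lower. The list's medians were 1.65, 1.20, 1.47 and 1.90 for hairpins 1 to 4 and 0.78 and 0.77 for the senescent libraries, each relative to the control. Hairpin 4 had the highest median of the 4. This list and the others below were chosen with earlier results of these data known. Their shares beside those of all genes therefore describe the lists and are not independent evidence.

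Inhibitors that restrain the pathway were among the members that rose. SPRY2, a Sprouty protein that blocks receptor signalling to RAS, had 7118.0, 5140.2, 4856.8 and 5242.4 with hairpins 1 to 4, 4102.7 and 3944.3 in the senescent libraries and 283.4 in the control. The lowest hairpin was thus 17.1-fold above the control (log2 4.28, SE 0.22, adjusted p = 0.000647 against the control). SPRY2 was also above both senescent libraries with every hairpin, but that difference was not called (log2 0.46, adjusted p = 0.192). SPRY4, its relative, was among the most even genes over the hairpins, at 7162.9, 6785.0, 7018.2 and 7733.7, against 6480.9 and 6740.9 in the senescent libraries and 711.3 in the control. It was 10.1-fold higher (log2 3.33, SE 0.11, adjusted p = 0.000166). DUSP4 and DUSP6, phosphatases that inactivate ERK and related kinases, averaged 4540 ± 813 and 7851 ± 1959 with the hairpins (SD, n = 4) against 255.8 and 800.4 in the control. Both passed the test, at log2 4.13 and 3.26 (adjusted p = 0.000853 and 0.00553). SPRED1, another inhibitor of the cascade, named after its values were seen, was 4.62-fold higher (adjusted p = 0.0109).

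Several transcription factors of the pathway also rose. ETV1, an ETS factor, had 1766.2, 1214.6, 1379.7 and 1995.7 with hairpins 1 to 4, 1036.0 and 1114.7 in the senescent libraries and 45.2 in the control, a difference of 34.5-fold (log2 5.11, SE 0.28, adjusted p = 0.000811). FOSL1, the AP-1 subunit FRA1, and PHLDA1 and IER3, induced early by growth signals, were named after their values were seen. Their log2 differences were 1.79, 3.21 and 2.20 (adjusted p = 0.0269, 0.00116 and 0.0361). CCND1, which encodes the G1 cyclin D1, had 23723.1, 30796.4, 25693.4 and 36357.1 with the hairpins, 36357.1 in each senescent library and 8613.0 in the control (3.34-fold, adjusted p = 0.0157). EGR1, an immediate-early gene, showed no common direction, with 1585.6, 769.0, 581.8 and 4297.6 against 866.1 and 577.1 in the senescent libraries and 723.7 in the control (adjusted p = 0.641). MYC had 589.9, 745.2, 618.2 and 1689.9 against 793.0 and 817.3 in the senescent libraries and 538.8 in the control (adjusted p = 0.539).

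By fitted difference the largest rise of the called genes was that of MMP1, although genes at the floor of 20 in the control may have risen further. MMP1 encodes an interstitial collagenase that cuts fibrillar collagen. It had 63004.2, 40950.0, 110360.7 and 211606.6 with hairpins 1 to 4, 45321.7 and 50370.2 in the senescent libraries and 361.0 in the control. Each hairpin was at least 113-fold above the control, and in the hairpin 4 library MMP1 was the gene with the highest value (adjusted p = 0.00608, log2 7.93, SE 0.85). STC1, a glycoprotein hormone that cells secrete, had 110360.7, 59295.6, 70122.0 and 110360.7 with the hairpins, 52307.1 and 65854.7 in the senescent libraries and 672.7 in the control (125-fold, adjusted p = 0.00105). For both genes every hairpin and senescent library was far above the control.

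Among the 15 largest rises were genes of membrane proteins, including a channel and receptors. TRPA1, a cation channel that senses irritants, had 2286.7, 3751.6, 2958.4 and 393.7 with hairpins 1 to 4, 2543.1 and 2282.1 in the senescent libraries and the floor value in the control, so every hairpin was at least 19.7-fold higher (adjusted p = 0.0293). F2RL1, a receptor cleaved by proteases, had 2304.0, 1150.6, 1736.1 and 207.4 with the hairpins, 678.7 and 694.2 in the senescent libraries and the floor value in the control (adjusted p = 0.048). Both were lowest with hairpin 4. TM4SF1, a tetraspanin-like surface protein, was the most even of the 15, at 4008.7, 4543.9, 5175.1 and 4684.3 against 2829.7 and 2729.4 in the senescent libraries and 55.8 in the control. It was 82.2-fold higher with an SE of 0.15 on the log2 scale (adjusted p = 6.18e-05). NTSR1, a neurotensin receptor, had 499.7, 481.2, 527.1 and 1467.3 with the hairpins, 146.4 and 166.4 in the senescent libraries and the floor value in the control. CNIH3, a glutamate receptor auxiliary protein, rose 30.8-fold, to 1385 ± 362 (SD, n = 4) against 43.9, and ESM1, an endothelial-type secreted proteoglycan, at least 12.9-fold with every hairpin.

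Intracellular proteins among the 15 were DOCK4, an activator of the small GTPases RAP1 and RAC, and PKIA, an inhibitor of protein kinase A. DOCK4 had 3117.1, 2831.7, 3236.1 and 6150.9 with hairpins 1 to 4, 2177.9 in each senescent library and 48.6 in the control (74.9-fold, adjusted p = 0.00145). PKIA had 708.8, 743.3, 1810.9 and 2218.9 with the hairpins, 1273.1 and 1290.7 in the senescent libraries and the floor value in the control. TMEM158, known as a gene induced by RAS in senescent fibroblasts, had 5122.7, 2604.8, 3990.8 and 8131.7 with the hairpins, 3457.7 and 4221.8 in the senescent libraries and 76.2 in the control (59.9-fold, adjusted p = 0.00462). The calling rule itself requires that no hairpin overlaps the control, so this holds for these 3 genes by selection. For PKIA and TMEM158 the hairpins overlapped the senescent libraries.

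AP-1 is the dimer of FOS and JUN proteins activated through ERK. The letters TGANTCA, where N is any base, were taken here as a loose form of its site. These letters were searched on both strands of RefSeq promoters (GRCh38.p14, 250 bases before to 50 after each gene's start), of which 9103 matched the genes tested by symbol or gene identifier. A match stood in 39 of 493 genes called higher (7.91%), 27 of 510 called lower (5.29%), 424 of all 9103 genes tested (4.66%) and 7.76% of all 27305 promoters in the table. Among the 15 largest rises 10 had a promoter in the table and 2 held a match, SERPINB2 and DOCK4. They are shown here as the promoters of strongly raised genes that hold the letters, with the match in capitals, 5′ to 3′ on the gene's own strand.
SERPINB2 (chr18:63887455-63887754, + strand): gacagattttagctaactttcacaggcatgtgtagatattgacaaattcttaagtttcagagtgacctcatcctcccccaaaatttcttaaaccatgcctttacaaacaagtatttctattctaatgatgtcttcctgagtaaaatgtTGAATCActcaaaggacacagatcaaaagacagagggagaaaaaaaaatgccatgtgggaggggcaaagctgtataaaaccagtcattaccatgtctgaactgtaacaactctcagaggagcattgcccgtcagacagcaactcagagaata
DOCK4 (chr7:112206350-112206649, - strand): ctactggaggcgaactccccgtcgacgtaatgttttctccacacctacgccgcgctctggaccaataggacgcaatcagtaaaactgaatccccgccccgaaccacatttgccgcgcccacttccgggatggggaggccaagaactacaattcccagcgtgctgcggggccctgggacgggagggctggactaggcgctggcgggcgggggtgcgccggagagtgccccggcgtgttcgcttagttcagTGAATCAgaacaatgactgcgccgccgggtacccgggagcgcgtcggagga
The match starts 102 bases before the start of SERPINB2 and 1 base before that of DOCK4. Both matches have A at the N. They are matches to the loose form only and are not shown to be AP-1 sites. Such a match describes the letters in this window and does not show binding.

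SERPINB2 encodes a secreted and cytosolic inhibitor of plasminogen activators. It had 4374.1, 3283.7, 11193.4 and 1673.0 with hairpins 1 to 4, 2742.7 and 3931.7 in the senescent libraries and 74.3 in the control (54.5-fold, adjusted p = 0.0206). The urokinase gene PLAU, whose enzyme it inhibits, had 45321.7, 27815.0, 46989.9 and 9227.6 with the hairpins, 26190.7 and 30796.4 in the senescent libraries and 1033.3 in the control. PLAU was 26.3-fold higher (log2 4.72, SE 0.90, adjusted p = 0.0312), and hairpin 4 was the lowest for both genes. Of 19 proteases and inhibitors 6 rose (31.6%, beside 5.38% of all genes) and 1 fell (5.26%, beside 5.83%), with a median of 0.97. Without hairpin 4 there were 7 and 3, where 11.6% of all genes were called higher and 11% lower. The gene that fell was ADAMTS1, a proteoglycan-cutting protease, with 696.9, 924.8, 1261.9 and 2002.6 against 2502.7 and 2335.9 in the senescent libraries and 14174.3 in the control (12.5-fold lower, adjusted p = 0.016).

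Inflammatory factors differed between hairpins 1 to 3 and hairpin 4. Of 24 tested 1 rose and 1 fell, shares of 4.17% each and near those of all genes, and the median log2 difference was 1.06. By hairpin the list's median was 1.77, 0.99, 1.66 and 0, and in both senescent libraries it was 0. IL8 (CXCL8), a neutrophil chemokine, had 17615.8, 4733.9 and 12902.8 with hairpins 1 to 3, 212.0 with hairpin 4, 931.6 and 2021.6 in the senescent libraries and the floor value in the control. IL1B, an inflammatory cytokine, had 12902.8, 4790.4 and 18474.2 with hairpins 1 to 3, 60.1 with hairpin 4, 1035.0 and 3344.9 in the senescent libraries and 23.2 in the control. Every hairpin was above the control for both genes, yet neither was called (adjusted p = 0.105 and 0.214).

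Without hairpin 4, IL8 and IL1B were called higher, with log2 differences of 9.00 and 8.82 (adjusted p = 0.0081 and 0.0119). The list then had 7 higher and 1 lower and a median of 1.36, where 11.6% of all genes were called higher and 11% lower. CXCL1 and CXCL2, chemokines named after their values were seen, were among the 7, and both were at the floor with hairpin 4 as in the control. IL1A, the membrane-bound relative of IL1B, had only 61.9, 36.0, 110.2 and 20 with the hairpins, 34.4 and 69.2 in the senescent libraries and 20 in the control (adjusted p = 0.437). IL6, a cytokine of the senescent secretome, had 135.6, 20, 58.8 and 20 with the hairpins and was at the floor in the senescent libraries and the control (adjusted p = 0.568).

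In 7 of the 24 inflammatory genes tested all 4 hairpins were above the control, beside 32.1% of all genes tested. Of these 7 genes PTGS2 alone was called. It encodes cyclooxygenase-2, which makes prostaglandin precursors, and had 13977.8, 5963.2, 7855.1 and 9940.7 with hairpins 1 to 4. The senescent libraries, at 1938.7 and 1848.6, were near the control at 1975.7. PTGS2 was 4.55-fold above the control (log2 2.18, SE 0.43, adjusted p = 0.034), and its log2 difference from the senescent libraries was 2.25 (adjusted p = 0.0788). CXCL12, a fibroblast chemokine that holds leukocytes and stem cells in place, was the gene that fell, to 22.7, 30.2, 21.8 and 20 with the hairpins and 20 in both senescent libraries, against 426.8 in the control (18.3-fold lower, adjusted p = 0.00115).

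FST, the activin antagonist follistatin, likewise had higher values with the hairpins than in either other group, at 469.7, 446.0, 524.0 and 994.1 with hairpins 1 to 4, 69.8 and 68.4 in the senescent libraries and 81.8 in the control. All hairpins were at least 5.45-fold above the control (log2 2.81, SE 0.45, adjusted p = 0.0197), and the log2 difference from the senescent libraries was 3.06 (adjusted p = 0.0788, and 0.0138 without hairpin 4). HGF, the growth factor that activates the MET receptor, had 519.0, 601.3, 1413.9 and 2620.9 with the hairpins, 224.2 and 282.9 in the senescent libraries and 25.2 in the control (41.2-fold, adjusted p = 0.0223). HAS2, a hyaluronan synthase, had 463.9, 616.7, 607.7 and 4054.7 with the hairpins, 211.3 and 235.4 in the senescent libraries and the floor value in the control (adjusted p = 0.0411). For both genes every hairpin was above the senescent libraries, these were above the control, and hairpin 4 was the highest. In limma the difference from the senescent libraries did not pass (adjusted p = 0.172 for HGF and 0.261 for HAS2). Nor did that of the senescent libraries from the control (adjusted p = 0.0769 and 0.126). The p53 and BRD7 knockdown libraries were also above both senescent libraries, with 446.0 and 390.1 for HGF and 924.8 and 296.6 for HAS2.

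Secreted growth regulators moved in both directions, with 3 of 22 higher and 3 lower (13.6% each, beside 5.38% and 5.83% of all genes) and a median of -0.73. ANGPTL4, an inhibitor of lipoprotein lipase, rose with STC1 and FST, to 121.4 ± 47.8 (SD, n = 4), against the floor value in the control. IGFBP6, a binding protein of insulin-like growth factors, fell by 2.49 on the log2 scale to 823.8, 866.9, 601.3 and 860.9, against 884.9 and 1046.0 in the senescent libraries and 4395.7 in the control. TGFB2, a TGF-beta ligand, was at the floor with hairpins 1 to 3 and at 34.8 with hairpin 4, against 22.0 and 20 in the senescent libraries and 113.9 in the control. PDGFA, a platelet-derived growth factor, was at the floor in all hairpin and senescent libraries and at 122.2 in the control, which makes it lower by at least 6.11-fold. EREG, an EGF receptor ligand named after its values were seen, had 19965.9, 10922.3, 14174.3 and 1089.8 with the hairpins, 4733.9 and 5820.2 in the senescent libraries and 1376.1 in the control. Hairpin 4 alone was below the control for EREG, which was not called (adjusted p = 0.353, and 0.00994 without hairpin 4).

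**Figure D1:**
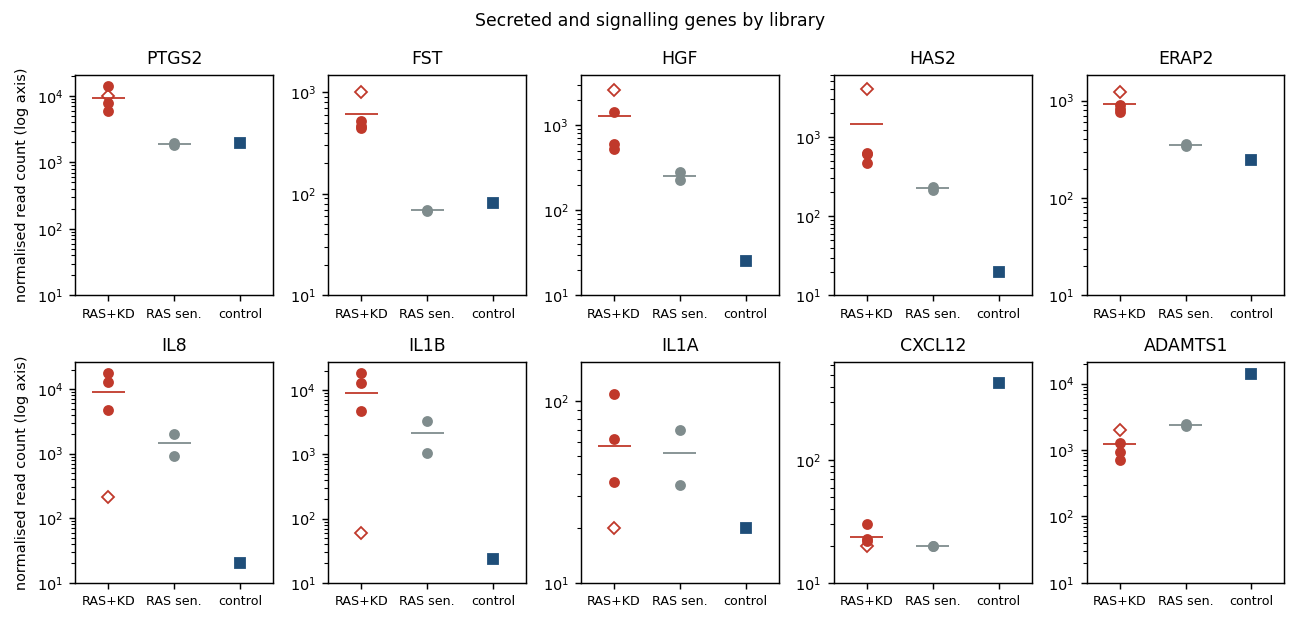
Normalised read counts on log axes for 10 secreted and signalling genes, by library: RAS with lncRNA-OIS1 knockdown (RAS+KD, red; open diamond hairpin #32-9), RAS senescent libraries (RAS sen., grey) and control (blue square), with lines at the means of the linear values. PTGS2, FST, HGF, HAS2 and ERAP2 are above both other groups with every hairpin, while IL8 and IL1B fall to 212.0 and 60.1 with hairpin #32-9. With all hairpins in the fit, no gene was called against the senescent libraries.

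Genes of dividing cells were not called against the control in larger shares than all genes. Of 38 mitosis genes 1 rose (2.63%, beside 5.38% of all genes) and none fell (beside 5.83%), with a median log2 difference of 0.38. In 17 of them all 4 hairpins were above the control and in none all 4 below, where 32.1% of all genes lay above and 28.7% below. The hairpins fell on both sides for the other 21 mitosis genes. The list's medians were -0.12, 0.79, 0.21 and 0.56 for hairpins 1 to 4, and -0.77 and -1.25 for the senescent libraries. In the study's p53 and BRD7 knockdown libraries they were 1.29 and 0.70. DNA replication and E2F target genes, 44 in all, had 2 higher (4.55%), 1 lower (2.27%) and a median of -0.02. Their medians were -0.38, 0.25, -0.08 and 0.33 by hairpin and -0.99 and -1.22 in the senescent libraries. The knockdown and senescent comparisons share the control library, so their sides of it are not independent.

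MKI67, the proliferation marker Ki-67, had 2574.2, 5049.7, 2960.2 and 5657.9 with hairpins 1 to 4, 1231.3 and 972.4 in the senescent libraries and 3913.6 in the control. The control lay between the hairpins, and the difference was -0.03 on the log2 scale with an SE of 0.48 (adjusted p = 0.976). CCNA2, the S-phase cyclin A2, had 710.9, 1334.7, 859.7 and 1116.8 with the hairpins, 382.8 and 316.8 in the senescent libraries and 897.6 in the control (log2 0.12, SE 0.35, adjusted p = 0.84). FOXM1, a transcription factor of mitotic genes, had 806.6, 1184.4, 871.8 and 1411.2 with the hairpins, 369.8 and 267.2 in the senescent libraries and 942.8 in the control (log2 0.14, SE 0.36, adjusted p = 0.815). For all 3 genes every hairpin was above both senescent libraries, at adjusted p = 0.0856, 0.0824 and 0.0788 for that difference. The p53 and BRD7 knockdown libraries were above them too, so this was not particular to the lncRNA-OIS1 knockdown. There MKI67 had 6931.1 and 5027.6, CCNA2 2006.6 and 1224.3, and FOXM1 1830.3 and 1155.8.

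PTTG1, the mitotic inhibitor securin, was the member that rose, with 950.8, 1362.6, 1140.3 and 1372.4 for hairpins 1 to 4, 502.4 and 476.0 in the senescent libraries and 489.9 in the control (2.44-fold, adjusted p = 0.0237). CHEK1, the kinase of the replication checkpoint, rose 1.79-fold, to 988.2, 876.9, 920.3 and 714.7, against 604.3 and 593.8 in the senescent libraries and 486.0 in the control (adjusted p = 0.0452). E2F7, a repressor of E2F targets, had 2368.1, 2461.8, 3028.7 and 1625.1 with the hairpins, 3224.1 and 3286.8 in the senescent libraries and 247.4 in the control (9.36-fold, adjusted p = 0.00462). E2F2, an activator of the same targets, fell to 20, 22.6, 20 and 36.2, against 20 in both senescent libraries and 116.8 in the control (adjusted p = 0.019). LMNB1, the lamina protein lost in senescence, had 526.3, 922.7, 347.1 and 949.6 with the hairpins, 224.3 and 174.9 in the senescent libraries and 1083.3 in the control (adjusted p = 0.437).

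**Figure D2:**
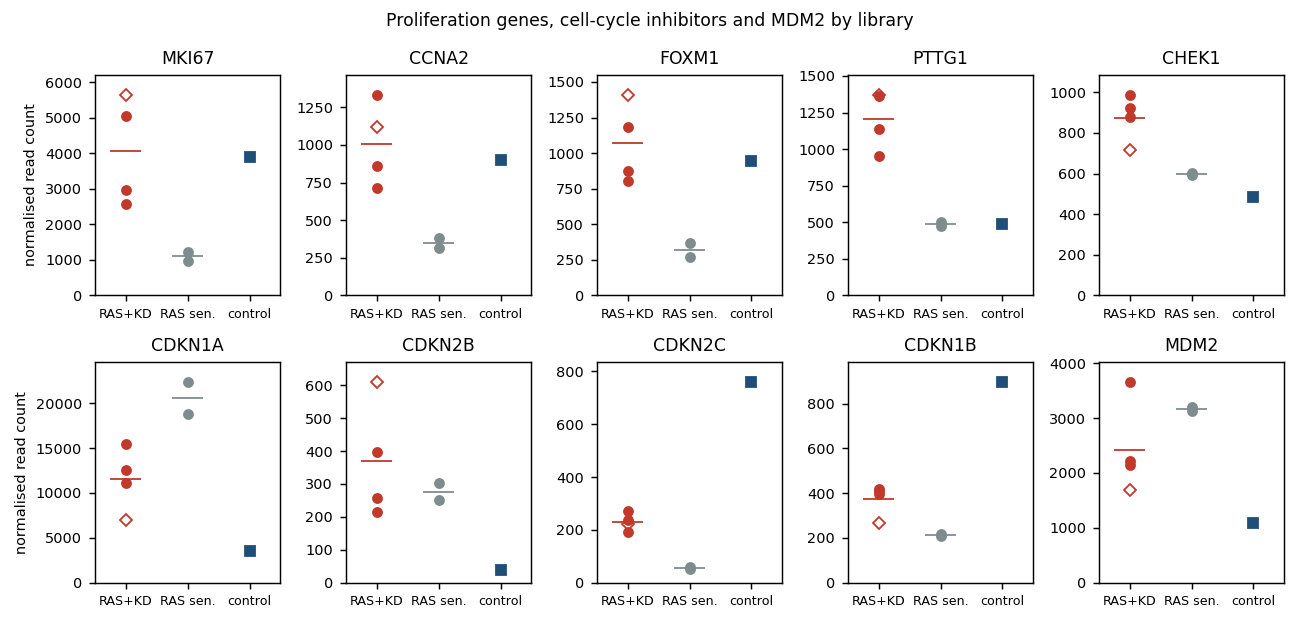
Normalised read counts on linear axes from 0 for 10 genes, namely proliferation genes, cell-cycle inhibitors and MDM2, by library: RAS with lncRNA-OIS1 knockdown (RAS+KD, red; open diamond hairpin #32-9), RAS senescent libraries (RAS sen., grey) and control (blue square), with lines at the means. MKI67, CCNA2 and FOXM1 lie on both sides of the control with the hairpins and below it in the senescent libraries; PTTG1 and CHEK1 are above the control with every hairpin.

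Inhibitors of cyclin-dependent kinases did not move together. Among 24 CDK inhibitors and senescence regulators 4 rose and 4 fell (16.7% each, beside 5.38% and 5.83% of all genes), with a median of 0.13. Without hairpin 4 there were 6 and 6, where 11.6% of all genes were called higher and 11% lower. CDKN2B, the inhibitor p15, rose to 395.9, 215.7, 256.1 and 610.0 with hairpins 1 to 4, beside 250.1 and 304.0 in the senescent libraries, against 39.0 in the control (8.71-fold, adjusted p = 0.0274). CDKN1A, the p53-induced inhibitor p21, had 15473.7, 11146.3, 12588.4 and 6989.6 with the hairpins, 18745.7 and 22372.6 in the senescent libraries and 3578.4 in the control. All hairpins were at least 1.95-fold above the control and below both senescent libraries, and CDKN1A was not called (adjusted p = 0.0627, and 0.0124 without hairpin 4). CDKN2A, the locus of p16 and ARF, was at the floor in the control, in both senescent libraries and with hairpins 1 to 3, and at 362.3 with hairpin 4. Counts of CDKN2A and its neighbour CDKN2B come from adjoining genes, and the sources used here do not say whether reads were assigned by strand.

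CDKN2C and CDKN1B, the inhibitors p18 and p27, fell. CDKN2C had 193.3, 273.4, 236.8 and 223.9 with hairpins 1 to 4, 58.7 and 52.0 in the senescent libraries and 760.2 in the control (3.3-fold lower, adjusted p = 0.0109). CDKN1B had 394.4, 420.3, 410.9 and 268.8 with the hairpins, 218.4 and 209.6 in the senescent libraries and 896.8 in the control (2.44-fold lower, adjusted p = 0.0395). For both, every hairpin lay between the senescent libraries and the control; the difference from the senescent libraries had adjusted p = 0.0788 and 0.117, and 0.0474 and 0.0447 without hairpin 4.

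TBX2 and TBX3, T-box repressors known to hold down CDK inhibitor genes, rose. TBX2 had 982.0, 1463.2, 1402.1 and 1078.3 with hairpins 1 to 4, 866.4 and 986.7 in the senescent libraries and 166.1 in the control (7.31-fold, adjusted p = 0.00347). TBX3, named after its values were seen, had 5317.2, 4755.1, 5194.9 and 5286.3 with the hairpins, 3016.9 and 2846.3 in the senescent libraries and 3362.9 in the control (1.53-fold, adjusted p = 0.0227). HMGA1, a chromatin protein that accumulates in senescent fibroblasts, had 17757.0, 23723.1, 13898.7 and 37673.0 with the hairpins, 19180.9 and 18745.7 in the senescent libraries and 3904.7 in the control (5.55-fold, adjusted p = 0.0383). HMGA2, its relative, averaged 7755 ± 3303 (SD, n = 4) against 1645.3 in the control (adjusted p = 0.0715, and 0.0198 without hairpin 4). GLB1, the lysosomal galactosidase behind the common stain for senescence, had 1094.2, 1029.6, 1028.7 and 1022.8 with the hairpins, 1172.6 and 1281.2 in the senescent libraries and 1389.8 in the control (adjusted p = 0.0548, and 0.0376 without hairpin 4). DPP4, a surface protease, and BRD7, a bromodomain protein, were not called (adjusted p = 0.832 and 0.649).

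Of 31 p53 targets 7 rose (22.6%, beside 5.38% of all genes) and none fell, with a median of 0.89. Without hairpin 4 there were 14 and none, where 11.6% of all genes were called higher and 11% lower. By library the list's medians were 0.92, 0.66, 1.09 and 0.36 with hairpins 1 to 4 and 1.18 and 1.17 in the senescent libraries. PMAIP1, the pro-apoptotic NOXA, rose most, to 3176.9, 3620.3, 4485.3 and 1744.0, against 4485.3 and 4994.2 in the senescent libraries and 337.8 in the control (9.12-fold, adjusted p = 0.017). EDA2R, a death-domain receptor, was 3.1-fold higher at 1277 ± 252 (SD, n = 4) against 406.8 (adjusted p = 0.0147). MDM2, the ubiquitin ligase that degrades p53, had 2140.7, 2217.4, 3657.1 and 1683.2 with the hairpins, 3126.9 and 3192.3 in the senescent libraries and 1095.2 in the control, and did not pass (adjusted p = 0.139).

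Matrix and contractile genes of the fibroblast had the lowest median differences of the lists. Of 34 genes of the fibrillar extracellular matrix none rose and 14 fell (41.2% of the list, beside 5.83% of all genes). Their median log2 difference was -1.44. Without hairpin 4 the list had 2 higher and 19 lower, where 11.6% of all genes were called higher and 11% lower. COL1A1, the main chain of type I collagen, had 18745.7, 11254.0, 8078.4 and 16210.4 with hairpins 1 to 4, 9913.6 and 8350.8 in the senescent libraries and 110360.7 in the control (8.56-fold lower, adjusted p = 0.0166). DCN, the proteoglycan decorin that coats collagen fibrils, had 143.8, 156.9, 263.8 and 281.3 with the hairpins, 71.7 and 68.2 in the senescent libraries and 11040.1 in the control (54.6-fold lower, adjusted p = 0.00186). LUM, the related lumican, had 956.0, 941.8, 1226.2 and 470.0 with the hairpins, 395.9 and 503.0 in the senescent libraries and 20683.0 in the control (24.4-fold lower, adjusted p = 0.00652).

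SULF1, a sulfatase that trims heparan sulfate, was at the floor in all hairpin and senescent libraries and at 2869.2 in the control, a fall of at least 143-fold. COL15A1, a basement membrane collagen, had 21 with hairpin 1 and 20 in the others, against 835.1 in the control. LOX, the lysyl oxidase that crosslinks collagen and was named after its values were seen, had 1841.0, 1685.4, 1366.4 and 2712.1 with the hairpins, 4884.7 and 4936.0 in the senescent libraries and 7949.9 in the control (4.32-fold lower, adjusted p = 0.0206). COL6A1 and COL6A2, chains of type VI collagen, went the other way and were named after their values were seen. COL6A1 had 26556.6, 18330.7, 33191.3 and 8719.6 with the hairpins, 9940.7 and 10581.3 in the senescent libraries and 4598.0 in the control. Neither was called (adjusted p = 0.119 and 0.208), and both were called higher without hairpin 4, which was the lowest of the 4 for each.

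Of 19 contractile genes and targets of TGF-beta 9 fell (47.4%, beside 5.83% of all genes) and 1 rose (5.26%, beside 5.38%), with a median of -1.98. Without hairpin 4 there were 12 and 1, where 11% of all genes were called lower and 11.6% higher. ACTA2, smooth-muscle actin, had 225.8, 205.8, 254.0 and 196.9 with hairpins 1 to 4, 273.6 and 280.3 in the senescent libraries and 882.6 in the control (4.02-fold lower, adjusted p = 0.00372). CNN1, calponin, was at the floor in all 4 hairpin and both senescent libraries, against 546.1 in the control, a fall of at least 27.3-fold. LMOD1, an actin nucleator of muscle, was at the floor with hairpins 1 to 3 and at 40.6 with hairpin 4, against 32.2 and 43.8 in the senescent libraries and 1266.1 in the control. LMCD1, a cofactor of cardiac transcription factors, had 27.4, 59.0, 27.3 and 100.7 with the hairpins, 25.1 and 21.8 in the senescent libraries and 1460.8 in the control (31.8-fold lower, adjusted p = 0.0174). SMTN, smoothelin, was the member that rose, 4.08-fold, to 3286 ± 489 (SD, n = 4) against 799.0 in the control (adjusted p = 0.00538).

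The largest fall by fitted difference was that of ALDH1A1, an enzyme that makes retinoic acid, although genes at the floor may have fallen further. It had 73.3, 233.8, 184.2 and 20 with hairpins 1 to 4, 140.0 and 190.2 in the senescent libraries and 18967.2 in the control. The fitted fall was 213-fold and no exact fold, since hairpin 4 was at the floor (log2 -7.73, SE 1.33, adjusted p = 0.0231). CRABP2, which carries retinoic acid to the nucleus, was also among the 15 largest falls and had 183.7, 190.9, 44.4 and 170.1 with the hairpins, 170.6 and 181.6 in the senescent libraries and 6064.0 in the control (47.5-fold lower, adjusted p = 0.0168). DHRS3, a retinaldehyde reductase, was at the floor in all hairpin and senescent libraries and at 1143.3 in the control. CHRM2, a muscarinic acetylcholine receptor, had 120.2, 88.9, 161.1 and 20 with the hairpins, 36.0 and 21.1 in the senescent libraries and 5921.4 in the control (77.3-fold lower, adjusted p = 0.0263). SYPL2, a membrane protein of muscle, and OLR1, a receptor of oxidised lipoprotein, fell 124-fold and 79.1-fold. ANO3, PREX2, GPR133 and RNF150 were at the floor with all 4 hairpins, and the control had 2055.9, 1949.0, 1235.3 and 1399.3.

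Floor values set a limit on these falls. Of the 1399 called genes 87 were at the floor with all 4 hairpins, 77 of them also in both senescent libraries, and they have no spread between hairpins. Their tests rest on the variance that moderation gives them and on the single control. A further 49 called genes were at the floor in the control. Among called genes that changed more than 4-fold and stayed above the floor with every hairpin, the most even were picked after their values were seen. C1R, a protease of the complement cascade, had 100.1, 111.1, 109.6 and 102.9 with hairpins 1 to 4, 58.9 and 50.6 in the senescent libraries and 1436.9 in the control (13.6-fold lower, adjusted p = 0.000508). SLC20A1, a phosphate transporter, had 28981.2, 25693.4, 23723.1 and 26990.8 with the hairpins, 23342.7 and 24296.7 in the senescent libraries and 3982.8 in the control (6.6-fold higher, adjusted p = 0.000805). GNAO1, a G protein subunit, had 189.1, 193.9, 185.1 and 192.1 with the hairpins, 107.9 and 89.8 in the senescent libraries and 905.1 in the control (4.76-fold lower, adjusted p = 0.00161). LINC00973, a long non-coding RNA, had 323.0, 326.3, 321.1 and 276.6 with the hairpins, 614.6 and 808.9 in the senescent libraries and the floor value in the control (adjusted p = 0.000647).

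Surface and identity genes of fibroblasts changed in both directions. Without hairpin 4 the 18 fibroblast markers had 3 higher and 7 lower, where 11.6% of all genes were called higher and 11% lower. NT5E, the ectonucleotidase CD73, had 18967.2, 17757.0, 26556.6 and 21682.0 with hairpins 1 to 4, 24296.7 and 23342.7 in the senescent libraries and 1465.6 in the control (14.3-fold higher, adjusted p = 0.00115). MME, the surface peptidase CD10, rose 4.25-fold, to 11459 ± 1720 (SD, n = 4) against 2671.4 (adjusted p = 0.00549). CDH2, N-cadherin, had 196.7, 201.2, 161.7 and 235.3 with the hairpins, 170.0 and 171.2 in the senescent libraries and 4056.6 in the control (20.6-fold lower, adjusted p = 0.000625). ITGA2, a collagen-binding integrin chain, had 33191.3, 20271.3, 24882.0 and 23723.1 with the hairpins, 22372.6 and 25693.4 in the senescent libraries and 1340.2 in the control (18.7-fold higher, adjusted p = 0.00126). Of 19 integrins and adhesion genes 3 rose (15.8%, beside 5.38% of all genes) and 2 fell (10.5%, beside 5.83%), with a median of 0.50.

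Transcription factors of fibroblast identity had 2 of 31 higher (6.45%, beside 5.38% of all genes) and 6 lower (19.4%, beside 5.83%), with a median of -0.38. Without hairpin 4 there were 3 and 10, where 11.6% of all genes were called higher and 11% lower. PRRX1, a mesenchymal homeobox factor, had 11077.6, 9286.2, 9784.6 and 18103.0 with hairpins 1 to 4, 5987.8 and 5513.1 in the senescent libraries and 2655.2 in the control (4.38-fold higher, adjusted p = 0.0241). NR2F1, an orphan nuclear receptor, had 270.7, 147.8, 144.7 and 240.3 with the hairpins, 96.0 and 97.6 in the senescent libraries and 2132.1 in the control (11-fold lower, adjusted p = 0.00792). OSR2 and FOXC1, factors of mesenchyme, fell by 2.43 and 1.81 on the log2 scale (adjusted p = 0.0192 and 0.0132).

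Of 37 interferon-stimulated genes none rose and 4 fell (10.8%, beside 5.83% of all genes), with a median of -0.17, beside -0.57 for the senescent libraries. Without hairpin 4 the list had 3 higher and 5 lower, where 11.6% of all genes were called higher and 11% lower. STAT2, a transducer of interferon signals, had 1210.8, 966.4, 1177.1 and 1214.9 with hairpins 1 to 4, 1101.9 and 979.1 in the senescent libraries and 3298.1 in the control (2.9-fold lower, adjusted p = 0.00576). IFIT2, an antiviral gene, had 224.2, 264.6, 196.2 and 158.2 with the hairpins, 128.7 and 149.0 in the senescent libraries and 677.3 in the control (3.27-fold lower, adjusted p = 0.023). ERAP2, an aminopeptidase that trims peptides for MHC class I, was the member of the 13 antigen presentation genes that rose (7.69%, beside 5.38% of all genes). It had 898.4, 809.6, 760.4 and 1233.0 against 343.4 and 354.3 in the senescent libraries and 244.7 in the control (3.71-fold, adjusted p = 0.0148).

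Metabolic and housekeeping lists varied in their shares of calls. In glycolysis and glucose uptake 2 of 22 genes rose (9.09%, beside 5.38% of all genes). They were PFKFB3 and PFKFB4, both enzymes that set the level of an activator of glycolysis, higher by 3.05-fold and 2.39-fold (adjusted p = 0.0136 and 0.0195). In the unfolded protein response and ATF4 list 4 of 24 rose (16.7%, beside 5.38% of all genes) and 1 fell (4.17%, beside 5.83%). Without hairpin 4 there were 4 and 7, where 11.6% of all genes were called higher and 11% lower. MANF, a secreted helper of the endoplasmic reticulum, had 1619.1, 1562.1, 1631.6 and 1586.8 with hairpins 1 to 4, 1360.3 and 1463.2 in the senescent libraries and 841.7 in the control (1.9-fold higher, adjusted p = 0.00442). SLC7A5, an amino acid transporter under ATF4, fell 3.23-fold (adjusted p = 0.0197). Lysosome genes had 1 of 33 higher, the galactosidase GLA, and 4 lower (12.1%, beside 5.83% of all genes), among them NAGLU and GAA, hydrolases of glycans and glycogen. None of 29 genes of cholesterol and fatty acid synthesis was called. Without hairpin 4, 1 was higher and 4 lower, beside 11.6% and 11% of all genes. Of 38 ribosomal protein genes RPL35 alone was called (2.63%, beside 5.38% of all genes called higher). It rose 1.45-fold, and near-identical pseudogenes make counts of this family uncertain.

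Among 18 genes of the nuclear lamina and histones 3 rose (16.7%, beside 5.38% of all genes) and 2 fell (11.1%, beside 5.83%), with a median of 0.25. H1F0, the linker histone of resting cells, had 6851.4, 7284.0, 9454.1 and 9743.6 with hairpins 1 to 4, 4145.3 and 4056.6 in the senescent libraries and 1764.9 in the control (4.67-fold, adjusted p = 0.00539). HIST1H4H and HIST2H2BE, core histone genes with near-identical copies, so that their counts are uncertain, were called higher and had lower values than in the senescent libraries. HIST1H4H had 58.7, 60.1, 95.8 and 74.7 with the hairpins, 233.1 and 245.8 in the senescent libraries and 24.0 in the control (adjusted p = 0.0332 against the control, and 0.0788 for the difference from the senescent libraries). SUN1 and SUN2, which link the lamina to the cytoskeleton, fell 2.01-fold and 2.09-fold (adjusted p = 0.0439 and 0.0405), and SUN1 was not called without hairpin 4 (adjusted p = 0.056).

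Against the senescent libraries, which share RAS activation with the knockdown libraries, limma called no gene (0 of 12481, 0%, with 2805 at an unadjusted p under 0.05). Without hairpin 4 it called 164, 80 higher (0.641%) and 84 lower (0.673%). Leaving out hairpin 1, 2 or 3 instead gave 0, 1 and 0 calls among the same 12481 genes. Calls in this comparison thus depended on leaving out hairpin 4, the hairpin least like the others. The senescent libraries themselves had 1878 genes called against the same control (15%), 992 higher (7.95%) and 886 lower (7.1%). PTGS2, FST, PTTG1, NRAS, CHEK1 and ERAP2, picked after their values were seen, were called against the control with the hairpins and not in the senescent libraries. Their log2 differences from the senescent libraries were 2.25, 3.06, 1.29, 0.74, 0.54 and 1.38, at adjusted p = 0.0788 for PTGS2, FST, PTTG1, NRAS and ERAP2 and 0.116 for CHEK1. Without hairpin 4, FST, NRAS and ERAP2 passed that test, at adjusted p = 0.0138, 0.0322 and 0.043. PTGS2 had 8201.7 and 3660.1 in the study's p53 and BRD7 knockdown libraries, FST 368.7 and 229.0, and PTTG1 2048.0 and 1299.9. NRAS had 3490.2 and 3430.2 there, CHEK1 1086.7 and 975.7, and ERAP2 342.0 and 447.1. For each of these genes but ERAP2 both libraries were above both senescent libraries, so higher values than those were not particular to the lncRNA-OIS1 knockdown.

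Some markers of other cell types were in the table. Of 13 epithelial markers 4 were in the table, of 13 leukocyte markers 5, of 11 endothelial markers 2 and of 11 smooth muscle and neural markers 7. KRT8, a keratin, fell to 244.5 ± 46.8 (SD, n = 4) against 593.0 in the control. PTPRC, the leukocyte marker CD45, was at the floor in all hairpin and senescent libraries and at 156.6 in the control, and CORO1A, an actin-binding protein of leukocytes, had 49.4, 63.7, 62.8 and 65.7 with the hairpins and the floor value in the control. MYH11, DES and CNN1, markers of muscle, were at the floor with all 4 hairpins. Summed epithelial markers ranged from 822.5 to 2125.3 with the hairpins and from 1637.5 to 1913.9 in the senescent libraries and came to 3706.7 in the control. Leukocyte markers summed to 152.9 to 275.6 with the hairpins, 238.9 to 301.5 in the senescent libraries and 393.4 in the control. Endothelial markers summed to 1030.8 to 4231.8 with the hairpins, 1550.8 to 1709.0 in the senescent libraries and 2741.9 in the control. Smooth muscle and neural markers summed to 5763.3 to 14812.0 with the hairpins, 7383.2 to 7901.9 in the senescent libraries and 11732.5 in the control. Their part in the results was not tested.

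Some genes sat at the edges of the rule. TBC1D22A-DT, C11orf45 and MYG1-AS1 entered the test with a highest value of 40, while GDF6, PKD1L1 and IL1RAPL1, at 39.8 to 39.9, stayed out. The hairpin nearest to the control was within 1% of it for 222 genes counted as lying on one side, and for 1051 genes that were not. Of the 4899 genes with hairpins on both sides, hairpin 4 alone was on the other side for 1579, and hairpins 1, 2 and 3 alone for 668, 475 and 597.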

How the data were processed

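PolyA RNA of BJ fibroblasts was sequenced as TruSeq RNA libraries, per the labels' protocols. The submitters' processing notes name TopHat2, HTSeq and hg19, without roles or versions. The deposited signal values are normalised read counts made by the authors: all 9 libraries hold the same set of values, as quantile normalisation gives, with a floor of 20 that 1375 genes (10%) reach in each. Totals are therefore equal at 14916466.5, sequencing depth is unknown and no counting interval can be given.

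Of 13745 genes, 12481 with a highest value of at least 40 were tested. Log2 values without a pseudocount were fitted with limma 3.58.1 in R 4.3.3, with 9 libraries in 5 groups, 4 residual and 1.65 prior degrees of freedom, trend moderation, two-sided tests and Benjamini-Hochberg adjustment over all genes tested. The fit was tested on simulated data. Nothing in the labels says that libraries came from separate cultures, so p-values measure the spread between libraries. In the knockdown group the 4 libraries carry different hairpins, so that spread includes differences between hairpins. They are not repeats of 1 hairpin. Both comparisons with the control share that 1 library.

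The members and lists were chosen with earlier results of these data known. Named genes were the 15 largest rises and falls among called genes, up to 3 called members of each of 26 lists in each direction, 30 fixed genes, and the 10 most even called genes past 4-fold. The 10 most even above the floor were added after the data were seen. Of 663 list entries 56 were not found by symbol. Promoters came from RefSeq. Alternatives were pseudocounts of 10 and 50, 2 other filters, another scaling, no trend, only the libraries compared, a replicate block and leaving out each replicate. The level of 1 fixed gene is not reported here.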

Additional observations from a re-analysis of the deposited data

Results flagged for a closer look

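Among 118 named genes whose hairpin values could be tested, 17 had 1 hairpin library far from the other 3 on the log2 scale. Chance alone marks about 1 in 20 where values are not tied. That rate does not hold where 3 hairpins are at the floor, as for CDKN2A, LMOD1, TGFB2 and COL15A1, since any other value is then marked. No excess over chance is therefore read from the count. The outlying library was hairpin 4 for 9 genes, hairpin 3 for 4, hairpin 1 for 3 and hairpin 2 for 1.

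With hairpin 4, CDKN2A was the highest at 362.3, where hairpins 1 to 3 were at the floor, and HAS2, NTSR1, FAM65B, LMOD1 and TGFB2 were the highest at 4054.7, 1467.3, 81.2, 40.6 and 34.8. CDKN1B, CD44 and LINC00973 were the lowest with hairpin 4, at 268.8, 26190.7 and 276.6. With hairpin 3, CDH11 was the highest at 3409.9, and CRABP2, IGFBP6 and KRT8 were the lowest at 44.4, 601.3 and 175.6. With hairpin 1, GLB1 and COL15A1 were the highest at 1094.2 and 21, and CORO1A was the lowest at 49.4. With hairpin 2, STAT2 was the lowest at 966.4.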

How the results depend on the processing

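The 1399 genes called with the knockdown against the control came to 1217 to 1600 under both pseudocounts, both filters, another scaling and no trend. With only the compared libraries in the fit there were 395, and leaving out 1 library gave 397 to 2822, the highest without hairpin 4. For the senescent libraries against the control the 1878 calls became 4998 with only the compared libraries and 124 to 3704 when 1 library was left out. The knockdown against the senescent libraries gave 57 calls with no filter, 1 with no trend and 0 to 164 when 1 library was left out. The count of genes with all hairpins on one side stayed between 6545 and 9161. The direction turned for MKI67, between -0.21 and 0.17 when 1 hairpin was left out, CCNA2 (-0.03 to 0.28), FOXM1 (-0.003 to 0.27) and DPP4 (-0.09 to 0.37); none of these was called. Of 130 named genes 52 lost their call with only the compared libraries, and 52 without either senescent library; fewer libraries then set the spread. Without hairpin 4, SUN1 and CDH11 lost their call, and CDKN1A, HMGA2, GLB1, IL1B and IL8 gained one. List counts without hairpin 4 were added after seeing the data. Senescent and knockdown libraries share replicate numbers, but same-numbered libraries did not deviate together (r = -0.0713 and -0.099), and the replicate block left the knockdown against senescent comparison at 0 calls. The control has no partner by number, so no such fit was made against it. Depth is unknown, and values at the floor of 20 hide any difference below it.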
